A study of Schizosaccharomyces pombe with 12 samples.

Results

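The 8 Tf2 retrotransposon copies on chromosome I of Schizosaccharomyces pombe, the fission yeast, are the rows of the deposited tables whose product names Tf2 and whose identifier begins with SPA. They are 8 of 13 Tf2 rows and 8 of 6888 genes. They are SPAC9.04 (Tf2-1), SPAC167.08 (Tf2-2), SPAC2E1P3.03c (Tf2-3), SPAC26A3.13c (Tf2-4), SPAPB15E9.03c (Tf2-5), SPAC27E2.08 (Tf2-6), SPAC13D1.01c (Tf2-7) and SPAC19D5.09c (Tf2-8), with the copy names taken from RefSeq. Poly(A)-selected RNA was sequenced from 4 strains with 3 samples each, grown at 30 °C in YEA, a rich medium, to log phase. Wild type was h-, with strain names L972, L973 and L974. The strain lacking med20 (med20Δ) was h+ and labelled med20:NAT with leu1-32 and ura4-D18. The strain lacking rrp6 (rrp6Δ) was h- and carried rrp6∆::KanMx6, with Leu1-32, His2, Ura4 DS/E, the number 216 and Otr1R(Sph1)::ura+ also in its label. The double mutant combined med20:natMX with rrp6∆::KanMx6, on leu1-32 and a ura4 allele written ura4-D18, ura4-D19 or ura4-D20 in its 3 samples. No label gives the number of Tf2 copies in a strain, so more copies of the element and more RNA from each copy cannot be told apart. The same holds for more cells with Tf2 RNA and more of it per cell. The strains also differ in mating type and markers. An effect of a deleted gene, or of both together, therefore cannot be told apart from one of the background.

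Tf2 elements are long terminal repeat (LTR) retrotransposons. Transcription starts in the upstream LTR, and 1 reading frame encodes Gag and the protease, reverse transcriptase and integrase that copy the RNA into DNA and insert it. The CENP-B homologues, histone deacetylases, the HIRA chaperone and the Set1 complex are known to hold Tf2 RNA down in fission yeast, and the sterol factor Sre1 is known to raise it in low oxygen. Med20 is a head subunit of Mediator, which links transcription factors with RNA polymerase II. Rrp6 is a nuclease that works with the exosome in the nucleus to trim or destroy RNA.

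All coordinates and sequences are from RefSeq (build ASM294v3). The deposited tables hold no coordinates. Each copy is annotated as a protein-coding gene with 4002 coding bases. Tf2-1 has its coding sequence at chrI:1465847-1469848 on the plus strand and Tf2-6 at chrI:4022492-4026493 on the plus strand. The other 6 copies lie on the minus strand. Their coding sequences are at chrI:1564216-1568217 (Tf2-2), chrI:2927204-2931205 (Tf2-3), chrI:3361547-3365548 (Tf2-4), chrI:3996423-4000424 (Tf2-5), chrI:5191144-5195145 (Tf2-7) and chrI:5195711-5199712 (Tf2-8). Tf2-7 and Tf2-8 stand in tandem with 565 bases between them. The annotated genes of Tf2-2 and Tf2-7 reach past the coding sequence (4117 and 4086 bases in all).

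The 8 coding sequences form 3 classes, and within a class they are identical. Class 1 holds Tf2-1, Tf2-2 and Tf2-4, class 2 holds Tf2-3, Tf2-5 and Tf2-6, and class 3 holds Tf2-7 and Tf2-8. Classes 1 and 2 differ at 2 positions of the 4002, counted from 1 at the first coding base, given with the base of Tf2-1 first: T153A and T617C. Class 3 has both of these and 8 more, namely C1619T, C1667T, A1677G, G1699A, G1767A, C1812T, T2085G and G2130A. Pairs of the 8 copies were therefore at least 99.75% identical. The stretch of coding bases 124 to 183 shows the first of the differences between classes 1 and 2, in capitals:

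Tf2-1 (class 1, chrI:1465970-1466029): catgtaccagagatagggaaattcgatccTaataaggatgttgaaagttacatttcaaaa

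Tf2-3 (class 2, chrI:2931023-2931082, minus strand): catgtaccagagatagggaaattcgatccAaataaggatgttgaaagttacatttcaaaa

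Tf2-7 (class 3, chrI:5194963-5195022, minus strand): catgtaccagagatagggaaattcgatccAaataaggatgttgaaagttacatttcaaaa

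Coding bases 1640 to 1699 hold 3 of the positions that set class 3 apart, again in capitals:

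Tf2-1 (class 1, chrI:1467486-1467545): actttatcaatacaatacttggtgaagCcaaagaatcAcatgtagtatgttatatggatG

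Tf2-3 (class 2, chrI:2929507-2929566, minus strand): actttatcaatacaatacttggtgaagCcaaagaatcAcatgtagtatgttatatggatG

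Tf2-7 (class 3, chrI:5193447-5193506, minus strand): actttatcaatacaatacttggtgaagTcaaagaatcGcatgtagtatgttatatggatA

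The upstream LTRs were as alike. Over the 349 bases nearest the coding sequence, they differed at 0 to 2 positions between any pair of the 8 copies. The first 150 bases of that stretch were identical in all 8. The annotated LTR of Tf2-7 is 356 bases long, so for this copy the stretch begins inside the LTR. These bases are shown because the LTR carries the promoter, printed for Tf2-1 at chrI:1465332-1465481:

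Upstream LTR start (all 8 copies): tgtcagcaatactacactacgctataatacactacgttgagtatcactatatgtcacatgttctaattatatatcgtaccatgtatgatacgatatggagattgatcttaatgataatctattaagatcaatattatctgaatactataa

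This likeness sets what a read can tell. Of all stretches of 36, 50 or 100 bases in each of the 8 coding sequences, 0% occurred once in the genome, so no read of those lengths within the coding sequence belongs to 1 copy. Tf2-9, on chromosome II, shares class 1, and Tf2-12, on chromosome III, shares class 2. How reads with several matching places were assigned was not given in the sources used here. These 8 copies are therefore 8 readings of nearly the same reads, not 8 independent measurements, and single copies are uncertain.

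The deposited tables give the mean of each strain. These means were split into the whole counts of the 3 libraries behind them, which are numbered 1 to 3 within a strain and do not correspond to sample letters. Normalised counts are those counts divided by a size factor for each library. Library totals over the 6176 genes split in all 12 libraries ran from 3738784 to 6917369. The med20 level was 670.2 ± 25.1 in wild type (SD, n = 3), 4.74 ± 2.07 in med20Δ and 23.7 ± 4.67 in the double mutant, and rrp6 was at 1530 ± 493 in wild type, 1.49 ± 1.09 in rrp6Δ and 1.15 ± 0.544 in the double mutant. The ura4 gene was at 2299 ± 299 in the libraries labelled med20Δ, against that label. It was at 2156 ± 356 in wild type, 1268 ± 110 in rrp6Δ and 3.09 ± 1.68 in the double mutant. The lowest deposited mean of any gene, a count of 1 in each library, was 0.888 in rrp6Δ and 0.826 in the double mutant. The rrp6 values of those strains, and ura4 in the double mutant, lay near this lowest level.

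In each strain 1 library stood apart from the other 2 over all tested genes other than Tf2. On the first component of the deviations from the strain means, which held 48.1% of their variance, library 1 of wild type scored -0.49, library 1 of med20Δ -0.34, library 2 of rrp6Δ -0.35 and library 2 of the double mutant -0.42. The 8 other libraries scored above 0. All 8 Tf2 copies were lowest in the library that stood apart, in each of the 4 strains. Results are given with all 12 libraries and then without these 4, a choice made after seeing the data. The rule picks the lowest score in each strain, so it always drops 1 library of each and leaves 2. It also drops the lowest Tf2 values of every strain, so calls made without these 4 are not independent support. The part that the difference between libraries has in the Tf2 results was not tested.

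By strain means, the summed level of the 8 copies was lowest in wild type, then came med20Δ and rrp6Δ, and it was highest in the double mutant. In normalised counts, wild-type libraries 1 to 3 held 1312, 2733 and 2177, a mean of 2074 ± 716 (SD, n = 3). The libraries of med20Δ held 1945, 2131 and 2883, a mean of 2319 ± 497 (SD, n = 3), and 1 of them lay above every wild-type library. In rrp6Δ they held 4161, 2147 and 5226, a mean of 3845 ± 1563 (SD, n = 3). Here libraries 1 and 3 lay above every wild-type library and library 2 lay within their range. In the double mutant they held 6002, 2829 and 8378, a mean of 5736 ± 2784 (SD, n = 3). All 3 exceeded the highest wild-type library, though library 2 did so by 2829 against 2733. The ratio of mean sums to wild type was 1.12 in med20Δ, 1.85 in rrp6Δ and 2.77 in the double mutant. Neighbours in the order (wild type and med20Δ, med20Δ and rrp6Δ, rrp6Δ and the double mutant) overlapped in their libraries.

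**Figure D1:**
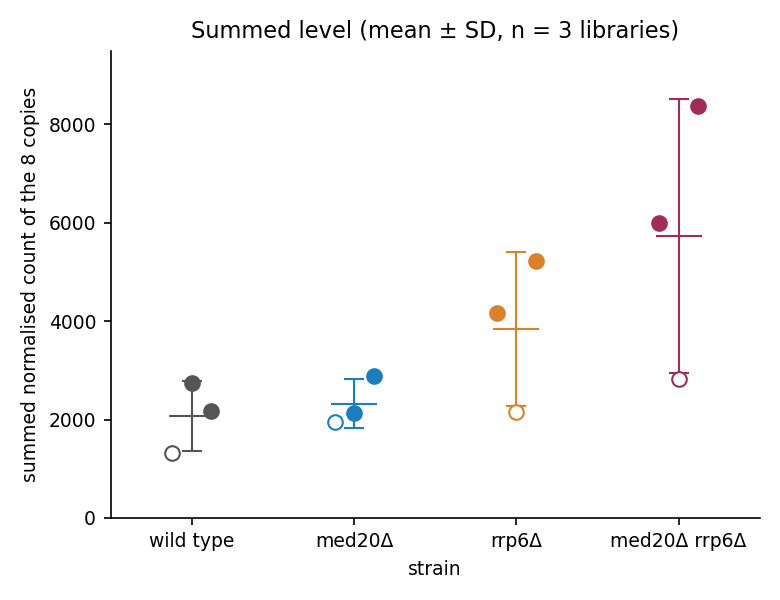
Summed normalised count of the 8 Tf2 copies (y axis) in each strain (x axis); points are libraries, the bar and whiskers are the mean ± SD (n = 3), and open points are the library of each strain that stood apart over all other genes. The open point is the lowest of each strain, from 1312 in wild type to 2829 in the double mutant.

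Pooled over strains, Tf2 varied more between libraries than a typical gene. The SD between libraries of a strain, pooled over the 4 strains on the log2(normalised count + 1) scale, was 0.54 to 0.65 for the 8 copies, against a median of 0.35 over 5578 genes. By strain, the median SD of the copies and that of all genes were 0.53 and 0.34 in wild type, 0.30 and 0.28 in med20Δ, 0.66 and 0.29 in rrp6Δ, and 0.81 and 0.35 in the double mutant. The mean of the other 2 libraries was 1.87 times the library that stood apart in wild type, 1.29 times in med20Δ, 2.19 times in rrp6Δ and 2.54 times in the double mutant.

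Loss of Med20 alone was accompanied by little difference in Tf2 RNA. Tf2-1 was at normalised counts of 164, 335 and 260 in wild-type libraries 1 to 3 and at 230, 245 and 340 in those of med20Δ. The groups overlapped for this copy, and for all 8 copies, beside 10.5% of genes whose med20Δ libraries all lay above wild type. In the authors' deposited table the 8 log2 fold changes were between 0.10 and 0.24, with a median of 0.16. None of the 8 was called there (adjusted p under 0.05, DESeq), beside 2.37% of all genes, and 0 of the 8 had an unadjusted p under 0.05. In limma, fitted over 5578 genes with all 4 strains in 1 model, the 8 log2 fold changes were 0.14 to 0.27 with standard errors (SE) of 0.37 to 0.44. Again 0 of 8 were called and 0 had an unadjusted p under 0.05, beside 4.2% of genes called. Without wild-type library 1 their median of 0.21 became -0.10, and without the 4 libraries that stood apart it was 0.02. The SE leaves room for changes of either sign.

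Tf2 RNA was higher in rrp6Δ in strain means, but no copy passed the test. For Tf2-1 the libraries of rrp6Δ held 530, 234 and 587, so libraries 1 and 3 exceeded the highest wild-type value of 335 and library 2 did not. The pattern was the same for all 8 copies, none of which separated the groups, beside 15.7% of genes whose rrp6Δ libraries were all above wild type. The authors' deposited table gives log2 fold changes of 0.77 to 1.00. The adjusted p in the authors' deposited table was 0.296 to 0.588, so 0 of 8 were called beside 5.97% of genes, and 1 had an unadjusted p under 0.05. In limma the median log2 fold change was 0.87, from 0.70 ± 0.42 (SE) for Tf2-6 to 0.99 ± 0.44 for Tf2-3. Limma called 0 of the 8 (adjusted p = 0.194 to 0.406), beside 8.44% of genes, and 2 had an unadjusted p under 0.05. Without the 4 libraries that stood apart, the median was 0.94 and limma called 6 of 8 (adjusted p = 0.026 to 0.0793), beside 9.02% of genes. Those 4 hold the lowest Tf2 values of their strains.

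The double mutant held the most Tf2 RNA, and here the 8 copies were called in limma but not by the authors' deposited table. For Tf2-1 its libraries held 679, 312 and 980 normalised counts against 164, 335 and 260 in wild type. Library 2 fell below the highest wild-type library for this copy. Tf2-3, with the highest fold change of the 8, was at 800, 358 and 1088 against 141, 338 and 232, and its groups did not overlap. Tf2-7, the copy with the highest level, was at 904, 528 and 1413 against 228, 444 and 366, again without overlap. The groups were apart for 5 of the 8 copies, beside 20.8% of genes with all 3 libraries of the double mutant above wild type. The authors' deposited table gives log2 fold changes of 1.29 to 1.66, ratios of 2.45 to 3.16, with an adjusted p of 0.0813 to 0.152. None of the 8 was called there, beside 15.3% of genes, while all 8 had an unadjusted p under 0.05.

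In limma all 8 copies rose in the double mutant, from 1.22 ± 0.41 (SE) for Tf2-8 to 1.60 ± 0.44 for Tf2-3 on the log2 scale, with adjusted p = 0.0139 to 0.0391. The share of all genes called was 28.7%, and 16.2% were called higher. The median of the 8 was 1.38 and that of all 5578 genes -0.02. The call was lost without single libraries. Limma called 0 of 8 without wild-type library 1 (adjusted p from 0.0546), beside 23.2% of genes. Without library 3 of the double mutant it called 0 of 8 (from 0.0615), beside 23.8%. It called 1 of 8 without library 1 of the double mutant, beside 17.3%, and 5 of 8 without wild-type library 3, beside 23.1%. With wild type and the double mutant fitted alone, 5 of 8 were called, beside 19.6% of genes. The share of all genes called was thus also lower in these fits. The fold change itself kept its sign, with the median of the 8 between 1.04 and 1.82 as 1 library at a time was left out. Without the 4 libraries that stood apart the median was 1.52 and 8 of 8 were called (adjusted p = 0.00092 to 0.00501), beside 35.2% of genes. This fit lacks the lowest Tf2 library of each strain, so it is not independent support.

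**Figure D2:**
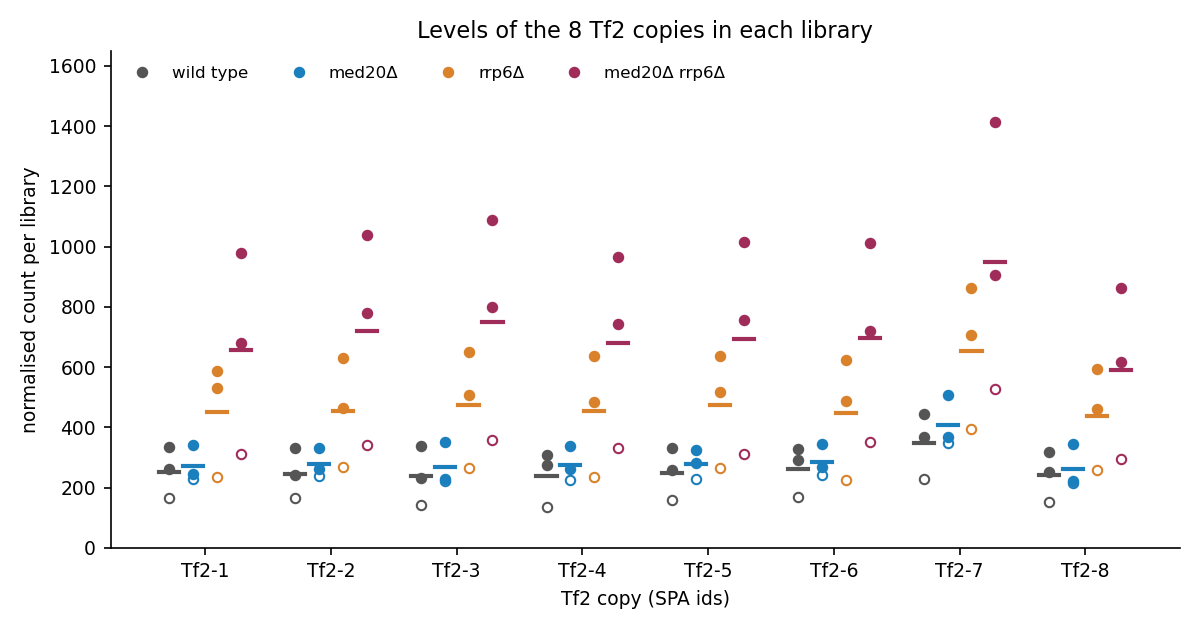
Normalised count (y axis) of each of the 8 Tf2 copies (x axis) in the 12 libraries, coloured by strain, with short bars at strain means; open points are the library of each strain that stood apart. The open points of rrp6Δ and of the double mutant sit near the wild-type points, while their filled points sit above them.

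**Figure D3:**
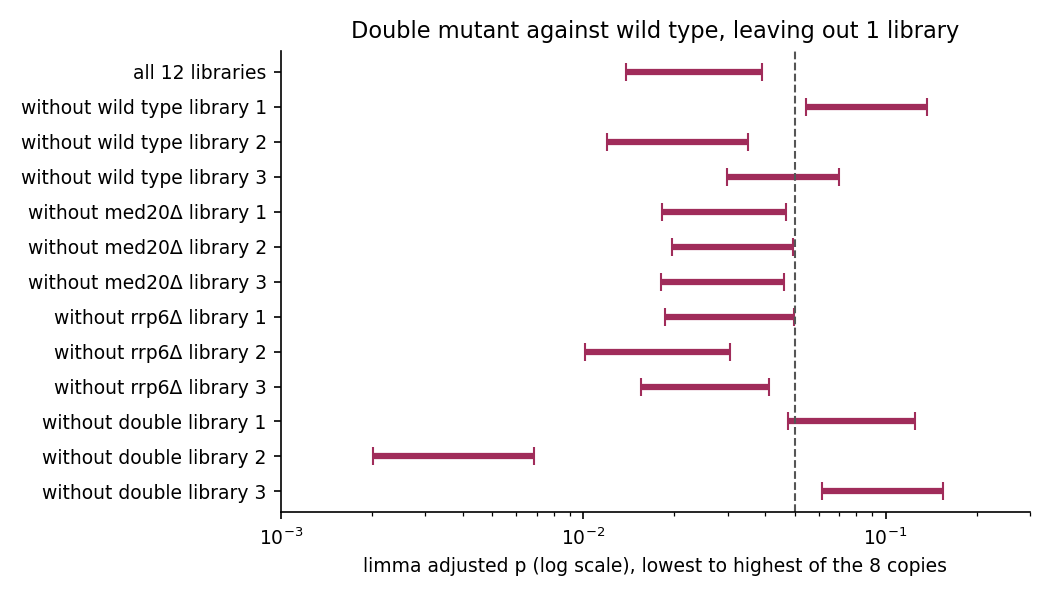
Range of the limma adjusted p over the 8 copies (x axis, log scale) for the double mutant against wild type, with all libraries and with 1 library left out (y axis); the dashed line is at 0.05. The range lies wholly above the line without wild-type library 1 and without library 3 of the double mutant.

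Against med20Δ the double mutant had a higher mean Tf2 level, but no copy passed the test. Its summed level was 2.47 times that of med20Δ in means, with its lowest library (2829) below the highest of med20Δ (2883). The groups were apart for 4 of the 8 copies, beside 17.8% of genes. The limma log2 differences were 1.08 to 1.37, with a median of 1.18. Adjusted p was 0.0531 to 0.101, so limma called 0 of 8 beside 13.1% of genes, while all 8 had an unadjusted p under 0.05. Limma called 8 of 8 without library 2 of the double mutant, beside 14.9% of genes. It called 3 of 8 without wild-type library 1 (beside 14.8%) or without library 2 of rrp6Δ (beside 12.7%). Without wild-type library 2 it called 1 of 8, beside 12.5%. Without the 4 libraries that stood apart it called 8 of 8 (median 1.50, adjusted p = 0.00212 to 0.00825), beside 22.3% of genes. Here too the lowest Tf2 library of each strain is left out.

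Against rrp6Δ the double mutant was higher in means by a ratio of 1.49 in the summed level, and no copy separated the groups, beside 13.1% of genes that did. The limma log2 differences were 0.38 to 0.63 with SE of 0.37 to 0.44. Of the 8, 0 were called and 0 had an unadjusted p under 0.05, beside 8.17% of genes called. The interaction, which asks whether the double mutant differs from the sum of both single changes on the log2 scale, was 0.23 to 0.48 with SE of 0.53 to 0.62. Limma called 0 of 8 for it (adjusted p = 0.995 for each), 0 had an unadjusted p under 0.05, and 0.233% of genes were called. Its median of 0.34 became -0.07 without library 2 of rrp6Δ.

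**Figure D4:**
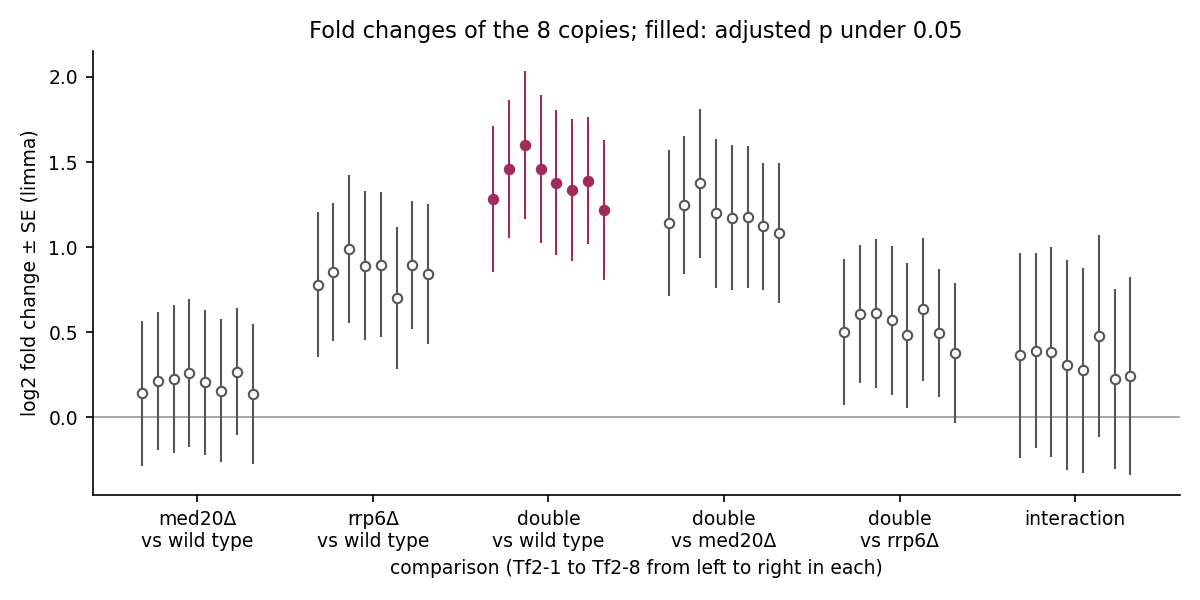
Limma log2 fold change ± SE (y axis) of the 8 copies, Tf2-1 to Tf2-8 from left to right, in 6 comparisons (x axis); filled points have an adjusted p under 0.05. Only the points of the double mutant against wild type are filled, between 1.22 and 1.60, and those of the interaction lie between 0.23 and 0.48 with the widest SE.

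The 8 copies moved together. Over the 12 libraries the Pearson r between copies on the log2 scale was 0.984 to 0.996 over 28 pairs. This describes rows whose reads match several copies. In each library the highest of the copies other than Tf2-7 was 1.08 to 1.29 times the lowest. On average, 7 copies took between 11.2% (Tf2-8) and 12.1% (Tf2-6) of the summed level. Classes 1 and 2 lay close together. In wild type, the mean normalised count was 246 over the copies of class 1 and 249 over those of class 2, and in the double mutant 686 and 713.

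Tf2-7 was the exception. It took 17.1% ± 0.979 of the summed level (SD over 12 libraries) and was the highest copy in all 12. Its coding sequence is identical to that of Tf2-8, its neighbour in tandem, yet its normalised count was 1.39 to 1.80 times that of Tf2-8. The ratio was 1.45 ± 0.0523 in wild type, 1.58 ± 0.101 in med20Δ, 1.50 ± 0.0462 in rrp6Δ and 1.63 ± 0.166 in the double mutant (SD, n = 3 each). These are levels of rows with the same coding length, and whether the authors' gene model of Tf2-7 was longer was not given in the sources used here. In RefSeq its gene is 84 bases longer than its coding sequence, and that of Tf2-2, which took 12.1% of the sum, is 115 bases longer.

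**Figure D5:**
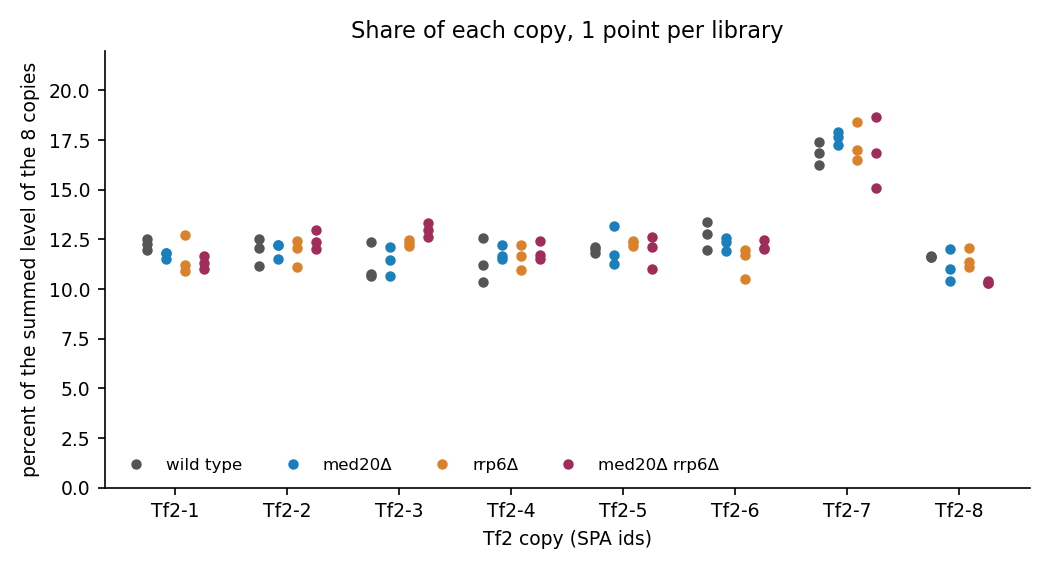
Share of each Tf2 copy (x axis) in the summed normalised count of the 8 copies (y axis, percent), with 1 point for each of the 12 libraries, coloured by strain. Tf2-7 lies between 15.1% and 18.7% in every library, above the other 7 copies in each.

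The 5 Tf2 rows on chromosomes II and III had like values. Tf2-9 (SPBC9B6.02c), Tf2-10 (SPBC1E8.04), Tf2-11 (SPBC1289.17), Tf2-12 (SPCC1020.14) and Tf2-13 (SPCC1494.11c) had limma medians of 0.27 in med20Δ, 0.84 in rrp6Δ and 1.40 in the double mutant against wild type. Limma called 0, 0 and 5 of the 5, respectively, beside 4.2%, 8.44% and 28.7% of genes. In rrp6Δ 2 had an unadjusted limma p under 0.05, while in med20Δ 0 had. The authors' deposited tables called 0 of these 5 in each mutant, beside 2.37%, 5.97% and 15.3% of genes. There, 0, 0 and 5 had an unadjusted p under 0.05. Tf2-11 is the row most open to reads of its own, with 6.48% of its 36-base stretches found once in the genome. It was at 139, 275 and 248 in the wild-type libraries, and the double mutant had 546, 301 and 801. All 3 libraries of the double mutant were thus higher here, as they were for 20.8% of genes. The Pearson r of these 5 rows with the summed level of the 8 copies was 0.992 to 0.995 over 12 libraries.

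The genes next to the copies were read in the same tables. The nearest gene with a row on each side of each copy, leaving out Tf2 rows, made 14 genes at 437 to 1318 bases. Their median log2 fold change in the authors' deposited tables was 0.01 in med20Δ, -0.19 in rrp6Δ and -0.08 in the double mutant. None of the 14 was called in any comparison of the authors' deposited tables, while 1, 0 and 2 had an unadjusted p under 0.05, and 2.37%, 5.97% and 15.3% of all genes were called in med20Δ, rrp6Δ and the double mutant. Limma, with 13 of them tested, called 0, 0 and 1, with 1, 1 and 4 at an unadjusted p under 0.05, beside 4.2%, 8.44% and 28.7% of genes. So few neighbours leave these shares imprecise. The 1 called was SPAC1705.02, beside Tf2-2, at 0.80 ± 0.27 (SE, adjusted p = 0.0373) in the double mutant.

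Genes of chromatin, sterol, integration and RNA surveillance pathways were read as 11 lists with 108 genes in the tables. The lists hold whole complexes, and not every gene in them is known to act on Tf elements. Per the authors' deposited tables, none of the 108 was called in med20Δ (3 at an unadjusted p under 0.05), 2 in rrp6Δ and 11 when both genes were deleted. The shares called were 1.85% in rrp6Δ and 10.2% in the double mutant, beside 5.97% and 15.3% of all genes. Limma called 1, 4 and 19 of the 105 it tested, beside 4.2%, 8.44% and 28.7% of genes. The median log2 fold change of the lists was 0.001 in med20Δ, -0.05 in rrp6Δ and -0.23 in the double mutant, and that of all protein-coding genes was -0.03, -0.12 and -0.18.

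Of the CENP-B homologues, which recruit histone deacetylases to Tf2, limma called abp1 lower and cbh2 higher in the double mutant. Of the 3, the authors' deposited tables called 0 in each mutant, with 0, 1 and 1 at an unadjusted p under 0.05 in med20Δ, rrp6Δ and the double mutant. Limma called 0, 1 and 2, again beside 4.2%, 8.44% and 28.7% of genes. The abp1 gene was at a normalised count of 555 ± 194 in wild-type cells and 325 ± 24.9 in the double mutant (SD, n = 3 each). Its limma log2 fold change there was -0.72 ± 0.25 (SE, adjusted p = 0.0438). It was also lower in means in med20Δ (373 ± 64.8) and rrp6Δ (421 ± 65.2), where limma did not call it (adjusted p = 0.290 and 0.491). The cbh1 gene was at 209 ± 35.1 in wild type and 214 ± 27.0 in the double mutant and was not called. The cbh2 gene was at 495 ± 35.5 in wild type, 923 ± 37.6 in rrp6Δ and 740.2 ± 33.9 in the double mutant, so its rrp6Δ and double-mutant means were both above wild type (limma log2 0.90 ± 0.19 SE, adjusted p = 0.00901, and 0.58 ± 0.19 SE, adjusted p = 0.0352).

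Of 5 HIRA and Asf1 genes, 1 fell in the double mutant, beside 15.3% of all genes called in the authors' deposited table. It was cia1, the histone chaperone Asf1, at -1.22 on the log2 scale (adjusted p = 0.00912) in the authors' deposited table. The HIRA subunit genes hip1 and slm9 were at -0.11 and -0.37 there and were not called. Of 8 Set1 complex genes, 0 were called in any of the authors' deposited tables, with 0, 0 and 3 at an unadjusted p under 0.05 in med20Δ, rrp6Δ and the double mutant. Limma called 0, 0 and 2 of them, the last beside 28.7% of genes, and set1 itself was at 0.18 in the authors' deposited table for the double mutant.

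Of 17 histone deacetylase genes and partners, the authors' deposited table calls 2 in the double mutant, beside 15.3% of all genes. These were cph1, a subunit of a Clr6 complex, which rose by 1.31 (log2, adjusted p = 0.00602), and clr2, a subunit of the SHREC complex with the deacetylase Clr3, at -1.07 (adjusted p = 0.0312). Of 11 SAGA genes 1 rose, the ubiquitin protease gene ubp8 at 1.31 (adjusted p = 0.0155) in the authors' deposited table. Limma called 4 of the 17 and 2 of the 11 in the double mutant, beside 28.7% of genes. Of the 17 it also called 1 in med20Δ (cph1) and 1 in rrp6Δ (clr2), beside 4.2% and 8.44% of genes. No gene was called in any of the authors' deposited tables among 15 genes of H3K9 methylation and RNAi, 4 of the LSD1 complex and 9 of the Fun30 and other repressive chromatin factors. In the double mutant 0, 0 and 1 of these had an unadjusted p under 0.05 there. Limma called 0, 0 and 1 of them in that strain, beside 28.7% of genes.

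Of 10 genes of the sterol and low-oxygen system, 3 fell in the double mutant, beside 15.3% of all genes called. Per the authors' deposited table, these were nro1, whose product restrains the oxygen sensor Ofd1, at -1.59 (adjusted p = 0.000279), the heme synthesis gene hem13 at -1.16 (adjusted p = 0.0358), and ofd1 at -1.04 (adjusted p = 0.0241). Of 5 host factors of Tf integration, 1 fell, the DNA-binding protein gene sap1 at -1.01 (adjusted p = 0.0336) in the authors' deposited table. Limma called 1 of the 8 sterol and low-oxygen genes it tested (ofd1) and 2 of the 5 host factors, beside 28.7% of genes.

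Of 21 genes of nuclear RNA surveillance, the authors' deposited tables call 2 in rrp6Δ and 3 in the double mutant. The shares of all genes called there were 5.97% and 15.3%, and both counts include rrp6, the deleted gene. Limma called 2 and 4 of the 21, beside 8.44% and 28.7% of genes. Beside rrp6 itself, the authors' deposited tables call red1, a scaffold of the complex that hands RNA to the exosome, at 1.00 in rrp6Δ (adjusted p = 0.0301). In the double mutant they call the exosome nuclease gene dis3 at -1.17 (adjusted p = 0.0123) and the helicase gene mtr4 at -1.12 (adjusted p = 0.0162).

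Outside the Tf2 family, the 5 genes with a pattern most like the summed level, of 4810 with a mean of at least 50, were the antisense RNA SPNCRNA.1253 (r = 0.961), the spliceosomal cactin gene cay1 (r = 0.957), the kinetochore gene nuf2 (r = 0.946), the Smc5-6 complex gene nse6 (r = 0.941) and the anaphase-promoting complex gene nuc2 (r = 0.923). These are Pearson r over the 12 libraries on the log2 scale, and all 12 share the difference between libraries described above. The 5 were chosen for following the Tf2 sum, so their levels are a description. For cay1 the wild-type libraries held 150.5, 203 and 219 normalised counts and those of the double mutant held 375, 265 and 437, without overlap. For SPNCRNA.1253 library 2 of the double mutant, at 48.2, lay below the highest wild-type library at 56.2, and for nuc2 it was at 648 against 653. In all 5 genes library 1 was lowest in wild type and library 2 lowest in the double mutant.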

How the data were processed

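RNA was measured in 12 samples of 4 strains. The authors deposited 3 tables of each mutant against wild type. Per the submitters' processing notes, Bowtie 0.12.7 and DESeq were used. The build, annotation, read counting and handling of multiply mapped reads were not given in the sources used here. Per the file headers, the deposited values are the mean normalised signal of each group, the fold change (a ratio), its log2 form, and p-values before and after adjustment.

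Each group mean up to 5000 was split into whole counts, 1 for each of its 3 libraries, whose size factors set the digits of the mean. All means up to that level were solved. Wild-type counts split separately from the 3 tables were identical for 6168 of 6168 genes, and simulated counts came back with 0 errors. Limma 3.58.1 (R 4.3.3, mean-variance trend) was fitted on log2(normalised count + 1) of 5578 genes with a mean of at least 10, all 4 strains in 1 model, with Benjamini-Hochberg adjustment over all of them. Fold changes on that scale understate low genes. The labels do not say whether replicates were separate cultures, though the series names them biological, so a p-value reflects the spread between the samples at hand, which may be technical. Alternatives tried were the pseudocount, the low-value filter, the size factors, 2-group fits and each library left out.

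The copies, gene lists and alternatives were chosen with earlier results of these data known. Genes were named by rule: all Tf2 rows, list genes called in a deposited table, called neighbours, the 5 genes most like the sum, and genes that define a list. Symbols were matched through RefSeq.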

Additional observations from a re-analysis of the deposited data

How the results depend on the processing

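No paired analysis was possible because the libraries recovered from the group means cannot be tied to the sample letters, so a replicate block could not be fitted. The 2-group fits give no interaction. In the deposited tables, an adjusted p under 0.1 calls 4 of 8 copies in the double mutant against wild type, in place of 0. Re-adjusting over genes averaging at least 10 changed no call. Re-centring on protein-coding genes gives no new p, so it could change no call. It raised every fold change, all of them already positive, so no sign could change either. In limma for the double mutant against wild type, 5 of 8 were called with 2 groups per fit, beside 19.6% of genes. Leaving out 1 library gave 0 to 8, beside 17.3% to 29.4% of genes. For the double mutant against med20Δ, limma called 3 of 8 with median-ratio size factors, beside 13.8% of genes. It called 0 to 8 as 1 library was left out, beside 6.45% to 14.9% of genes. Without the 4 libraries that stood apart it called 8 there, beside 22.3%, and 6 in rrp6Δ against wild type, beside 9.02%. The cause was not tested.

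With 1 library left out, the median log2 fold change of the 8 copies ranged from -0.10 (without wild-type library 1) to 0.45 in med20Δ against wild type. For rrp6Δ it lay between 0.57 and 1.21, and for the double mutant between 1.04 and 1.82. It ranged from 0.83 to 1.63 for the double mutant against med20Δ, from 0.16 to 1.00 against rrp6Δ, and from -0.073 (without library 2 of rrp6Δ) to 0.80 for the interaction, with -0.0050 without library 3 of the double mutant. Limma called 0 of 8 in each of these for med20Δ and rrp6Δ against wild type, the double mutant against rrp6Δ and the interaction. Pseudocounts of 0.5 and 5 and no low-value filter moved no count of calls among the 8 copies past 1.5 times. Over all genes, limma called 36 in place of 13 for the interaction without the low-value filter. With 2 groups per fit it called 125 in place of 234 in med20Δ. As 1 library was left out, the genes called numbered 92 to 255 for med20Δ, 265 to 489 for rrp6Δ and 966 to 1640 for the double mutant against wild type, 360 to 830 for the double mutant against med20Δ, 185 to 555 against rrp6Δ and 4 to 24 for the interaction. Without the 4 libraries that stood apart, they numbered 1243 against med20Δ in place of 730 and 1019 against rrp6Δ in place of 456. Summing all 13 Tf2 rows moved the ratios of the summed level by less than the spread between libraries. The 8 copies together held 1246 to 10134 raw counts in a library, and the 3 libraries of a strain set the precision of each mean.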
